A study of Homo sapiens with 6 samples.

Results

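Gene expression in RPMI-8402 cells that had received a hairpin was compared with that in cells that had received the control, with both hairpin groups pooled. The cells, an established human line, derive from T-cell acute lymphoblastic leukaemia (T-ALL). A short hairpin RNA (shRNA) is processed in the cell into a small RNA that directs the breakdown of a matching transcript. The hairpin side held 4 arrays, 2 labelled shGATA3 and 2 labelled shTCF1 after the protein of the gene TCF7, and the other side held the 2 control arrays, so that all 6 samples of the series were used. Cells of all 3 groups were grown in the same medium, transduced with lentivirus and sorted for EGFP 48 h later, and the control cells therefore carried a lentiviral vector as well. The study's methods describe a commercial control hairpin and a GATA3 hairpin in vectors with EGFP in place of puromycin resistance, and no hairpin vector for TCF7 is described there. A probe was taken as a member if it stood well above background on all 6 arrays, which held for 27277 of 57176 unique probes (47.7%). Of these, 21267 came from the Agilent catalogue and 6010 were custom probes for long noncoding RNAs. All values are normalized log2 intensities, and a difference of 1 is a 2-fold change.

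All 6 arrays lay on the same slide and were scanned together, but the hairpin arrays filled row 1 of that slide and both control arrays lay in row 2. Slide row and hairpin therefore cannot be told apart for any value given here. The 75th percentile of the intensity before normalization was 271 and 290 on the control arrays, 176 and 177 on those labelled shGATA3, and 179 and 166 on those labelled shTCF1. The control arrays were thus 1.61 times as bright as the hairpin arrays, and brightness moved with the comparison as row did. The software had also fitted the spot grid of the 4 hairpin arrays with an optimized setting that was off for both control arrays. On each array 51.0% to 56.1% of probes exceeded background clearly, no spot was saturated, and the correlation across tested probes was at least 0.994 within a group and 0.983 to 0.989 between a hairpin and a control array. Columns 2 and 3 of the slide each held a hairpin and a control array, which allowed a comparison within a column but not within a row.

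**Figure D1:**
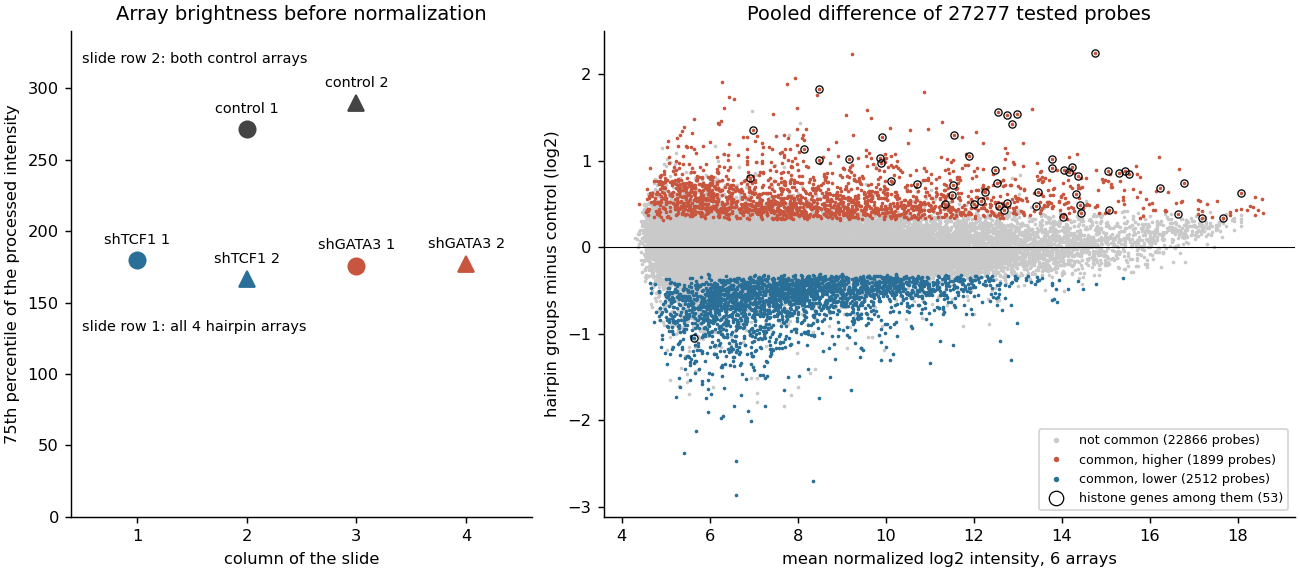
Left, 75th percentile of the processed intensity of each of the 6 arrays against the column of the slide it lay in, with the slide row written beside the points; the control arrays read 271 and 290 and the hairpin arrays 166 to 179. Right, difference between the hairpin groups and the control (log2) against the mean normalized log2 intensity for all 27277 tested probes; the 1899 higher and 2512 lower probes that were both called and beyond both controls are coloured, and the 53 of them that belong to histone genes are ringed.

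The targeted genes were examined first. GATA3, a zinc finger factor needed throughout T-cell development, read 9.55 on both control arrays. With the shGATA3 label it read 9.46 and 9.53, and with the shTCF1 label 9.74 and 9.88. Its level on the arrays labelled shGATA3 thus lay within 0.1 of the control, and the difference of -0.05 was not called (limma adjusted p = 0.784), so these libraries did not carry the change that their label names at the probe measured. The brighter of both TCF7 probes read 13.98 and 13.91 on the control arrays, 12.57 and 12.67 on those labelled shTCF1 and 14.27 and 14.27 on those labelled shGATA3. TCF7 was therefore lower where its label says so, by 1.32 (limma adjusted p = 0.00175), and was not lower in the other hairpin group. With both groups pooled this probe was still called lower, at -0.50 (limma adjusted p = 0.0152). In the gene lists below, TCF7 thus counts as a fall wherever it is a member, though it was itself a target. Of 17 markers of T-ALL cells, 13 were well above background on all arrays, with CD3D, LMO1, LCK and DNTT at 13.14 or above, while CD1A, CD1B, RAG1 and RAG2 were not. Markers of other lineages that stood well above background on none of the arrays included CD22, EBF1, CSF1R, CD33, KLRD1, KLRF1, PRF1, HBB, COL1A2, COL3A1 and EPCAM. Of the other lineages' markers that were tested, CSF3R was called, with a difference of 0.53 (limma adjusted p = 0.0163).

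T-ALL cells are transformed thymocytes in which growth commonly depends on Notch signalling, on oncogenic transcription factors and on high metabolic activity. In developing T cells, Notch receptors release an intracellular fragment that joins the DNA-binding protein RBPJ and switches on genes such as HES1, DTX1 and NRARP, while TCF1 and GATA3 act with Notch to establish T-lineage expression. The T-cell receptor and the cytokine receptors of the common gamma chain family are the main surface inputs of these cells.

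All 4 hairpin arrays lay above both control arrays at 4998 probes (18.3% of those tested) and below both at 5934 (21.8%). In limma, the mean of both hairpin groups differed from control at an adjusted p below 0.05 for 2006 probes that were higher (7.35%) and 2708 that were lower (9.93%). Probes that met both conditions are called common here: 1899 were higher (6.96%) and 2512 were lower (9.21%). Of these, 52 of the higher and 1 of the lower belonged to histone genes, out of 92 histone probes tested, and are left out below. The remaining 4358 common probes had a median absolute difference of 0.55, and 40 of them rose and 111 fell at least 2-fold in both hairpin groups. Of the calls, 42.6% were rises after variance stabilizing normalization (VSN), 57.9% after scaling to the 75th percentile, 56.0% after quantile normalization and 51.3% after a normexp background correction, so the balance of rises and falls moved with the scaling. Counting the spread between the hairpin groups as error, in a model with 2 groups, left 384 higher and 513 lower probes. With control 1 left out, 283 higher and 415 lower probes were common, and with control 2 left out 504 and 925.

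Falls were unevenly spread over brightness and over kinds of transcript. Among 5 equal classes of probes by mean intensity, the share that was common and lower was 5.52% in the dimmest, 11.9%, 12.7% and 10.2% in the next classes and 5.72% in the brightest. The share that was common and higher went from 5.81% in the dimmest to 9.04% in the brightest. Probes of protein-coding genes were more often lower, with 818 higher and 1837 lower of 16216. The custom long noncoding RNA probes went the other way, with 599 higher and 317 lower of 6010. Under the 75th percentile scaling the custom probes counted 894 higher and 250 lower and the coding genes 1233 higher and 1422 lower, so the direction stayed for both kinds while the coding genes came closer to an even split. With the rows of spots on the array split into 4 equal blocks, 5.67% to 7.63% of probes were common and higher and 8.45% to 10.3% common and lower. A gene's other probes were common in its direction more often than all such probes were. Genes whose brightest probe was common and lower had 340 further probes. Of these, 144 were common and lower (42.4%) and 3 higher, beside 17.0% lower over all 3674 further probes. Genes that were higher had 206 further probes, 37 of them higher (18.0%) and 9 lower, beside 3.29% higher over all.

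The 12 genes that rose most in both groups included 7 with a protein-coding name or readthrough and 5 noncoding RNAs. They were ranked by the smaller of both group differences, so the size of their changes describes the choice and is no further evidence. FAM177B, a coding gene of little known function, read 7.46 and 8.04 on the control arrays, 9.42 and 10.28 on those labelled shGATA3 and 9.89 and 10.33 on those labelled shTCF1. Every hairpin array exceeded both controls by more than 1.3, and the pooled difference was 2.23 (SE 0.28, limma adjusted p = 0.00606), or 4.69-fold. ANXA1, annexin A1, which binds membrane phospholipids in a calcium-dependent way and limits inflammation, read 7.15 and 7.36 in control, 9.09 and 9.24 with shGATA3 and 8.71 and 9.01 with shTCF1. ANXA1 was 3.39-fold higher (difference 1.76, SE 0.12, limma adjusted p = 0.00207). OPTN, an autophagy receptor, read 5.98 and 6.03 in control against 7.18 to 7.40 on the hairpin arrays. SYCE2, a component of the synaptonemal complex of meiotic chromosomes, read 7.97 and 8.12 in control against 9.04 to 9.45. Both rose by similar amounts, OPTN by 1.27 (SE 0.09, limma adjusted p = 0.00194) and SYCE2 by 1.22 (SE 0.09, limma adjusted p = 0.0025).

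LHX3, a LIM homeobox factor of pituitary and motor neuron development, rose by 1.27 from 10.77 and 10.99, and LYNX1-SLURP2, a readthrough transcript of neighbouring Ly6 family genes, rose by 1.20 from 11.30 and 11.52. FBXO2, a ubiquitin ligase subunit that recognises glycoproteins, was 2.14-fold higher, from 7.40 and 7.16. The remaining rises were noncoding: LOC100507547 rose by 1.35, the antisense transcript CD27-AS1 by 1.13, SNORA28 by 1.49, RNVU1-18 by 1.15 and SNORD3B-1 by 1.04. CD27-AS1 was dim, at 5.22 and 4.53 on the control arrays. LOC100507547 had further tested probes at -0.09 and -0.13, neither called, so its rise was seen at its brightest probe alone. The calls for LOC100507547, LHX3, LYNX1-SLURP2 and SNORD3B-1 were lost without control 1, at adjusted p of 0.131, 0.0593, 0.0519 and 0.0963, and that for LOC100507547 also without shTCF1 1 or shTCF1 2. The 12th gene, CD27-AS1, had a smaller group difference of 0.94 and the next gene, MON1B, of 0.93.

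Of the 12 genes that fell most in both groups 11 are described. NAV3, a microtubule-binding navigator protein, read 7.01 and 7.19 in control, 4.81 and 5.12 with shGATA3 and 5.16 and 4.84 with shTCF1. NAV3 fell by 2.12 (SE 0.14, limma adjusted p = 0.00193) and the hairpin groups lay within 0.04 of each other. PCDH8, a protocadherin that mediates contact between cells, read 8.37 and 8.19 in control against 5.84 to 6.62, and it fell by 2.01 (SE 0.12, limma adjusted p = 0.00169).

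Among the remaining falls, ME3, the mitochondrial malic enzyme that uses NADP, fell by 1.90 from 8.10 and 8.18, and F12, coagulation factor XII, fell by 1.84 from 7.63 and 7.93. EPS8L3, of a family of actin regulators, was 2.83-fold lower, from 8.70 and 8.87, and NINJ2, a membrane adhesion protein, was also 2.83-fold lower, from 9.72 on both control arrays. CD276, the B7-H3 member of the B7 family of immune ligands, fell by 1.36, and COBLL1, which binds actin, fell by 1.37. The zinc finger gene ZNF630 fell by 1.31, the readthrough transcript ZNF664-RFLNA by 1.39 and the noncoding LOC145845 by 1.63. At each of these 11 genes the highest hairpin array lay at least 0.9 below the lower control array. The call for ZNF664-RFLNA was lost without control 1 (adjusted p = 0.0509). For 8 of these falls and for CD27-AS1 the difference was more than 1.5 times smaller after normexp, which was run on the median signal in place of the processed signal and adds an offset, with NAV3 at -1.22, PCDH8 at -1.27, LOC145845 at -0.94, F12 at -1.09, ME3 at -1.14, CD276 at -0.77, ZNF664-RFLNA at -0.84, ZNF630 at -0.64 and CD27-AS1 at 0.48. All 23 genes described were common under each of the 4 scalings. In ZNF630, ranked 12th, the smaller group difference was -1.30, and in the next gene, TSPAN13, it was -1.21.

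**Figure D2:**
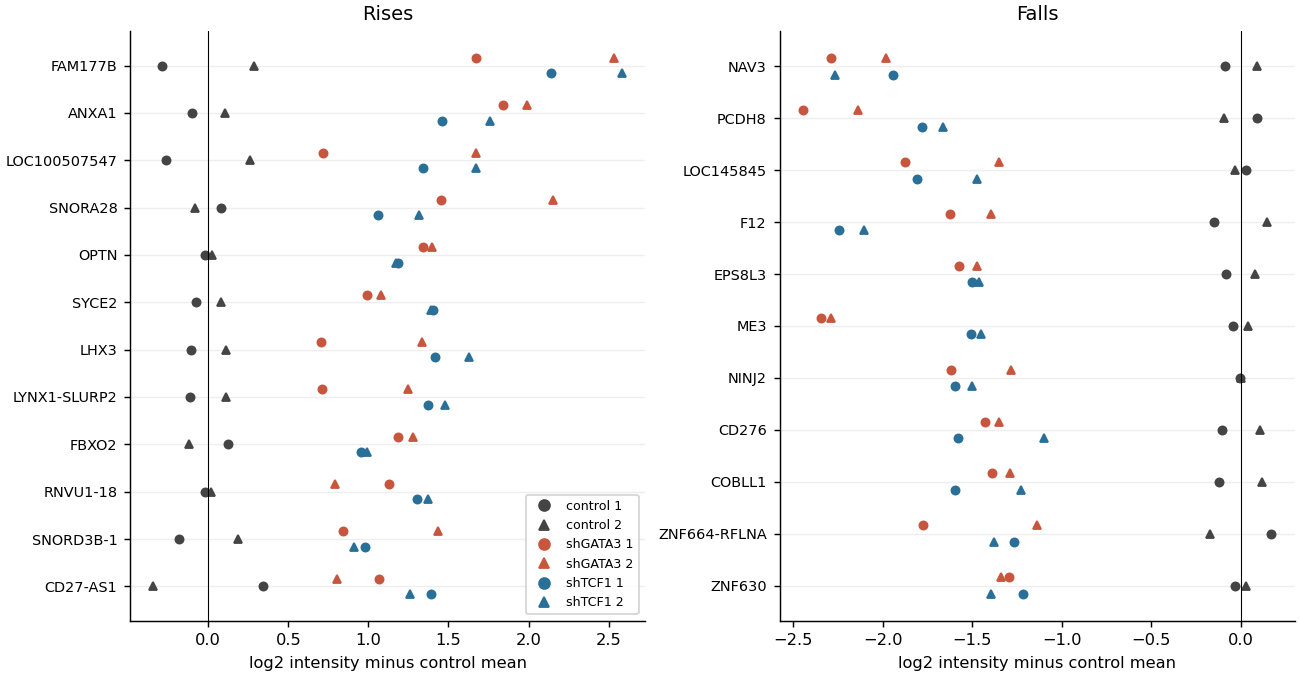
Normalized log2 intensity minus the control mean on each of the 6 arrays for the 12 rises (left) and the 11 falls (right), with shGATA3 arrays in red, shTCF1 arrays in blue and control arrays in grey. At every gene shown, the 4 hairpin arrays lie on the same side of both control arrays, as the choice of common probes required. ME3 is the gene at which the hairpin groups lie farthest apart, by 0.84.

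Of the custom probes for long noncoding RNAs, TCONS_00029068 and ENST00000369391 rose most. TCONS_00029068 read 9.45 and 9.89 on the control arrays and 11.24 to 11.61 on the hairpin arrays, a difference of 1.79 (SE 0.16, limma adjusted p = 0.00324). ENST00000369391 rose by 1.48 from 4.73 and 4.55, and by 0.58 after normexp. TCONS_00029178 read 8.26 and 8.73 in control and 4.91 to 6.05 on the hairpin arrays. TCONS_00029178 fell by 2.86 (SE 0.26, limma adjusted p = 0.00311), and fell by 1.89 after normexp. ENST00000525450 fell by 2.38 from 6.84 and 7.15 to between 4.46 and 4.90, and by 1.15 after normexp. The files give these transcripts an identifier without a gene symbol. The lowest mean intensity of any tested probe was 4.30. The hairpin values of ENST00000525450 and the control values of ENST00000369391 thus lay near that limit.

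Several of the genes at the top of the rises were structural RNAs, and all tested probes of RefSeq's ribosomal, small nuclear, small nucleolar, telomerase, signal recognition particle, RNase P and RNase MRP types were therefore examined together, a choice made after their values were seen. These RNAs work in ribosomes, splicing and RNA processing, and most are made without a poly(A) tail. Of 30 such probes for 25 RNAs, 12 were common and higher and 0 lower, where 6.96% of all probes were higher. Their median difference was 0.36, against -0.02 for all probes, and 0.28 to 0.42 under the other scalings. RMRP, the RNA of RNase MRP, which cuts ribosomal RNA precursors, read 9.60 and 9.58 in control, 10.35 and 10.33 with shGATA3 and 10.83 and 10.82 with shTCF1. It rose by 0.99 (SE 0.08, limma adjusted p = 0.00304), and replicate arrays lay within 0.03 of each other. RN7SK, which holds the elongation factor P-TEFb in an inactive complex, averaged 16.06 ± 0.09 (SD, n = 2) in control and read 16.74 and 16.69 with shGATA3 and 17.24 and 17.20 with shTCF1. RN7SK thus rose by 0.91 (SE 0.09, limma adjusted p = 0.00361) from an already high intensity.

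SNORD3B-1, a U3 small nucleolar RNA that guides early cleavage of the ribosomal RNA precursor, had a second probe at 12.29 and 12.33 in control against 13.40 to 13.60, which rose by 1.20 (SE 0.10, limma adjusted p = 0.00283). U3 copies are near-identical, so its probes may read other copies as well. RNVU1-18, a variant of the U1 spliceosomal RNA, read 11.92 and 11.95 in control against 12.73 to 13.31. SNORA28, which guides pseudouridylation, read 8.73 and 8.57 in control, 10.11 and 10.80 with shGATA3 and 9.71 and 9.97 with shTCF1. RNA5-8SN5, the 5.8S ribosomal RNA, rose by 0.94 (limma adjusted p = 0.0145) and RPPH1, the RNA of RNase P, by 0.51 (limma adjusted p = 0.0397). RNA28SN5, the 28S ribosomal RNA, was split between its probes. Common rises of 0.58, 0.58 and 0.47 were each common under 2 of the 4 scalings, with lowest values of 0.42, 0.05 and 0.01 across scalings. A further RNA28SN5 probe lay at -0.36 and was not called (limma adjusted p = 0.169). Other members gave no such rise: SNORA62 lay 0.36 below control, SNORA23 at -0.09 and SNORD17 at -0.29, none of them called. Of 12 higher probes 8 were common under all 4 scalings, and the calls of SNORA28, RNVU1-18, RMRP, RN7SK and the second SNORD3B-1 probe held without each of the 6 arrays in turn, of which that of RN7SK was lost in the model with 2 groups (adjusted p = 0.0517). RPPH1 was lost without any array but shGATA3 1, and the highest adjusted p was 0.18. RNA18SN5 read 11.70 on shGATA3 2 and 13.72 to 14.13 on the other hairpin arrays, against 12.52 and 12.47 in control, so that array alone went against the direction.

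**Figure D3:**
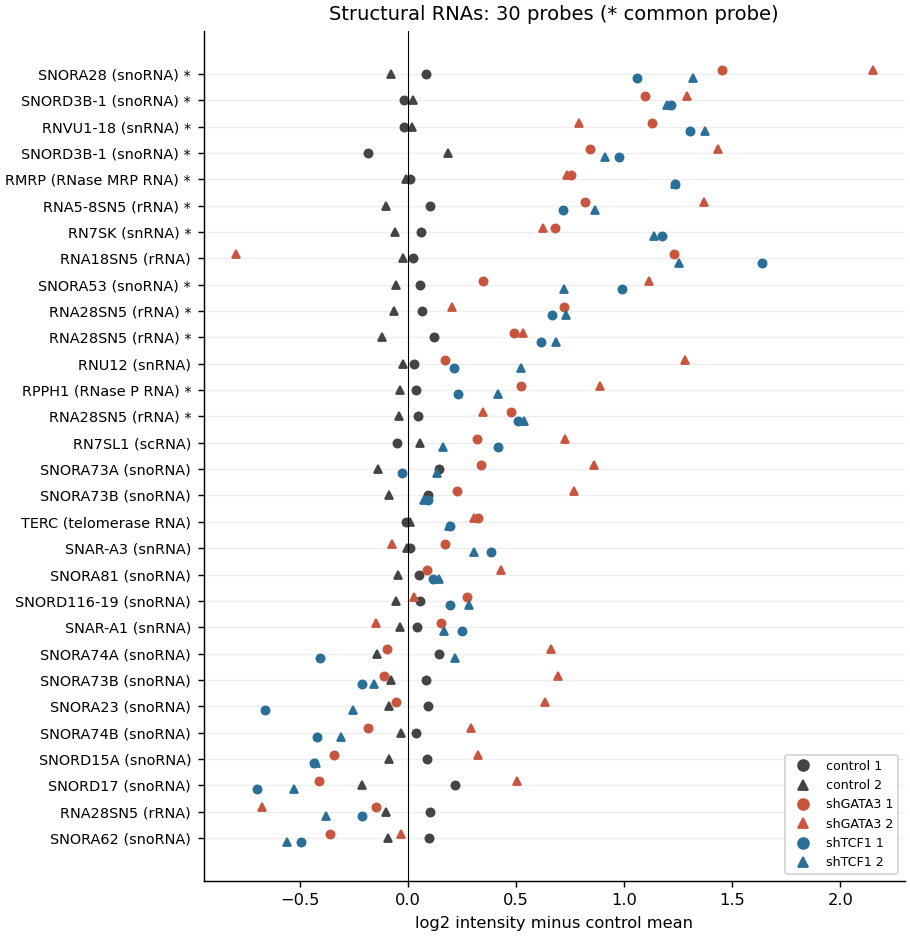
Normalized log2 intensity minus the control mean on each array for all 30 tested probes of structural RNAs, ordered by pooled difference, with the RefSeq type in brackets and an asterisk at the 12 common probes. Probes at the top lie above both controls on all 4 hairpin arrays, while most small nucleolar RNAs in the lower part scatter around the control.

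Genes of known pathways were read from lists, with each gene represented by its brightest tested probe. Over all 13448 genes so represented, 832 were called higher (6.19%) and 1375 lower (10.2%), with 791 (5.88%) and 1267 (9.42%) also beyond both controls. The median difference over all tested probes was -0.02, and the lists are set against these shares.

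Notch pathway genes were called in both directions. Of 34 tested Notch genes, 6 were called higher and 5 lower, or 17.6% and 14.7%, all 11 of them beyond both controls, with a list median of -0.04. Without control 1 these counts were 4 and 0, and without control 2 they were 4 and 2. NOTCH1, the receptor most often mutated in T-ALL, read 9.13 and 9.09 in control, 9.59 and 9.63 with shGATA3 and 10.02 and 10.06 with shTCF1. It rose by 0.72 (SE 0.09, limma adjusted p = 0.00553), while a dimmer NOTCH1 probe rose by 0.35 without being called (adjusted p = 0.0762). NOTCH4, another receptor, rose by 0.79, and by 0.25 after normexp. Of the signalling core, the glycosyltransferase LFNG was called in opposite directions by its probes, at 0.57 for the brighter and -1.13 for the dimmer, so its direction is unsettled. POFUT1, which adds fucose to Notch receptors, fell by 0.72, and by 0.32 after normexp.

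Among Notch targets, NRARP, a small ankyrin protein that limits Notch signalling, read 7.26 and 7.22 in control, 9.12 and 9.01 with shGATA3 and on average 8.02 ± 0.02 (SD, n = 2) with shTCF1. It rose in both groups, by 1.30 in the pooled contrast (SE 0.09, limma adjusted p = 0.00196), and more on the arrays labelled shGATA3 (difference 1.05, SE 0.10, limma adjusted p = 0.00256). DTX1, a ubiquitin ligase of the pathway, read 10.42 and 10.31 in control and averaged 11.19 ± 0.08 with shGATA3 and 11.09 ± 0.13 with shTCF1 (SD, n = 2), and rose by 0.78 (SE 0.10, limma adjusted p = 0.00674). HES4, a HES family repressor, rose by 0.44 at a very bright probe, and by 0.17 after quantile normalization and 0.26 after normexp. HES1, the best known repressor among the targets, read 8.50 and 8.50 in control, 7.97 and 7.85 with shGATA3 and 7.79 and 7.99 with shTCF1. It fell by 0.60 (SE 0.10, limma adjusted p = 0.0128), and by 0.40 after normexp. HEYL, a related repressor, read 7.67 and 7.59 in control against 6.88 to 7.04 and fell by 0.65 (SE 0.09, limma adjusted p = 0.0084). MYC, a growth-promoting factor and Notch target in T-ALL, read 12.22 and 12.22 in control against 11.40 to 11.64 and fell by 0.67 (SE 0.09, limma adjusted p = 0.0081). RUNX3, a factor of cytotoxic T cells, fell by 0.70. The calls of NOTCH1, NOTCH4, NRARP and DTX1 held without each array, but in the model with 2 groups that of DTX1 held and those of NOTCH1 (adjusted p = 0.0618), NOTCH4 (0.0637) and NRARP (0.085) did not. By contrast, HES1, MYC and RUNX3 lost theirs without control 1 or control 2, HEYL without control 1, LFNG without either control array (that is, with control 1 or with control 2 left out), POFUT1 without control 1 or shTCF1 1, and HES4 with adjusted p up to 0.195.

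The promoters of 4 targets that moved in opposite directions are shown because RBPJ binds a known core, TGGGAA. They are RefSeq windows of build GRCh38.p14 from 250 bases before to 50 bases after the gene's start, written along the gene's strand, with TGGGAA or its reverse complement TTCCCA in capitals.
HES1 promoter, chr3:194135898-194136197, plus strand: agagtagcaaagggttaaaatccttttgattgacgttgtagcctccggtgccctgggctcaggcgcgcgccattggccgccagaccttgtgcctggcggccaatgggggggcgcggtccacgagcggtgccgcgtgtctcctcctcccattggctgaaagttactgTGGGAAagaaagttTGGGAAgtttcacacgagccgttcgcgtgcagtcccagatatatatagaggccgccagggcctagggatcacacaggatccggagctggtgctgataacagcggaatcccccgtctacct
HEYL promoter, chr1:39639594-39639893, minus strand: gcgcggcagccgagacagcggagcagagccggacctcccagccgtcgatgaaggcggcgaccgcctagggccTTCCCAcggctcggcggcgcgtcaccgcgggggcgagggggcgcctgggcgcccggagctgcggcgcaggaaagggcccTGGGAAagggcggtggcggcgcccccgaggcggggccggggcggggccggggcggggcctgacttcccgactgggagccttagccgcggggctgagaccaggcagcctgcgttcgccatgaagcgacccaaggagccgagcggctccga
NRARP promoter, chr9:137302222-137302521, minus strand: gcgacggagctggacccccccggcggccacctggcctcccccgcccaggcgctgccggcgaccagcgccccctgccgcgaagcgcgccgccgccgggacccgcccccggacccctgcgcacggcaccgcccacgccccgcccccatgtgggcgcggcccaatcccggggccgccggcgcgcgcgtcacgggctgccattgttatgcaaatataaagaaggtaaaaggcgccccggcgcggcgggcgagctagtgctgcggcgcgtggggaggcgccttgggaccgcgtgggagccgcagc
HES4 promoter, chr1:1000048-1000347, minus strand: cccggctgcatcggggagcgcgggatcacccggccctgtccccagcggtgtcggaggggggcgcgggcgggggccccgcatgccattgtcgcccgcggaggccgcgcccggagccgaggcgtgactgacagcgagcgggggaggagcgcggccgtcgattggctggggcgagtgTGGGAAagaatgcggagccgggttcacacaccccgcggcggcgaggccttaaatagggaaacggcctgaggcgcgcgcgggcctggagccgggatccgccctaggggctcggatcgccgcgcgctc
Both genes that fell held the core at 2 places: HES1 at 84 and 70 bases before the start, and HEYL at 178 and 99 bases before it. HES4, which rose, held it at 76 bases before the start, and NRARP, which also rose, held no such letters in this window. Of all 35116 windows 24.0% held the core at least at 1 place on either strand and 3.8% held at least 2. Of 29 Notch list genes with a window 7 held it in at least 1 window (24.1%), as did 5 of 9 common genes with a window. These 5 were HES1, HES4, HEYL, LFNG and RUNX3. A gene with more than 1 window has more chances of a match, so shares of genes and shares of windows are unlike measures. The 4 genes shown were picked from the 9, so the numbers of places in them describe that choice. A match is a string of letters and not a binding site, and no binding was measured in these files.

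Genes of the T-cell receptor complex and its signalling moved in both directions. Of 29 tested, 8 were called lower (27.6%) and 3 higher (10.3%), of which 7 and 3 were beyond both controls, and the list median was -0.14. Without control 1 there were 2 lower and 0 higher, and without control 2 there were 3 and 0. CD2, an adhesion receptor of T cells, read 11.91 and 11.89 in control, 11.42 and 11.44 with shGATA3 and 9.67 and 9.71 with shTCF1. It lay below control in both groups, with a pooled fall of 1.34 (SE 0.08, limma adjusted p = 0.00169) that came mostly from the shTCF1 arrays (group difference 1.74, limma adjusted p = 0.000367). RASGRP1, which activates RAS downstream of the receptor, read 10.30 and 10.20 in control, 9.39 and 9.35 with shGATA3 and 8.47 and 8.72 with shTCF1. It fell by 1.27 (SE 0.10, limma adjusted p = 0.00304), again further on the shTCF1 arrays. PTPN22, a phosphatase that dampens receptor signalling, fell by 0.80 from 8.22 and 8.13, and the adaptor GRAP2 by 0.71, or by 0.47 after normexp. PLCG1, a phospholipase, and the coreceptor CD6 each fell by 0.45, and the adaptor LCP2 by 0.35. Other members were higher: CD3G, a chain of the CD3 complex, read 12.99 and 13.23 in control against 13.57 to 13.87 and rose by 0.62 (SE 0.12, limma adjusted p = 0.021), and the coreceptor CD4 read 11.67 and 11.63 against 12.02 to 12.54 and rose by 0.66 (SE 0.09, limma adjusted p = 0.00741). The kinase FYN rose by 0.34. The chains CD3D (0.41, adjusted p = 0.245) and CD3E (0.28, adjusted p = 0.0893) were not called. CD2 and RASGRP1 stayed called without each array but not in the model with 2 groups (adjusted p = 0.197 and 0.0544), PTPN22 was lost without control 1 (adjusted p = 0.0504), and the others were lost without either control array, with adjusted p up to 0.258 for FYN.

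Receptors of the common gamma family changed in both directions. IL2RG, the shared gamma chain of the receptors for interleukins 2, 4 and 7, read 12.21 and 12.25 in control, 13.22 and 12.99 with shGATA3 and 13.24 and 13.39 with shTCF1. IL2RG was 1.97-fold higher (difference 0.98, SE 0.11, limma adjusted p = 0.0046). IL2RB, the beta chain for interleukins 2 and 15, read 7.80 and 7.91 in control, 6.70 and 6.57 with shGATA3 and 7.10 and 7.18 with shTCF1. It fell by 0.97 (SE 0.10, limma adjusted p = 0.00361), and IL4R, which pairs with the gamma chain, fell by 0.98 (SE 0.10, limma adjusted p = 0.00438) from 8.03 and 8.13, and by 0.64 after normexp. IL15RA rose by 0.39 and was lost without either control array. Of 19 tested genes of the list 2 were called higher (10.5%) and 3 lower (15.8%), and the calls of IL2RG, IL2RB and IL4R held without each array.

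Of 24 tested T-lineage transcription factors, 1 was called higher (4.17%) and 6 lower (25.0%), 4 of the lower beyond both controls, with a median of -0.22. None of these 6 falls was called without control 1 or without control 2. The riser was SATB1, a chromatin organizer of thymocytes, which read 8.09 and 8.31 in control, 9.74 and 9.30 with shGATA3 and 9.12 and 8.88 with shTCF1. SATB1 rose by 1.06 (SE 0.15, limma adjusted p = 0.00868) and was lost without control 1 (adjusted p = 0.0631) and in the model with 2 groups (adjusted p = 0.0544). ID1 and ID3, which block E-protein binding to DNA, fell by 0.46 and 0.51, and ID1 by 0.25 after normexp. The ID1 fall was carried by the shTCF1 arrays, at 6.94 and 6.98 against 7.82 and 7.75 in control, with the shGATA3 arrays at 7.69 and 7.69. IKZF2, the factor Helios, fell by 0.44, with a group difference from control of -0.14 on the shTCF1 arrays. ID1 and IKZF2 were common under 2 of the 4 scalings. The calls of ID1, ID3 and IKZF2 were lost without either control array, with adjusted p up to 0.178. Among 14 tested leukaemia and progenitor genes, 3 were called higher (21.4%) and 4 lower (28.6%). HHEX, a homeobox factor of progenitors, read 10.20 and 10.22 in control, 8.43 and 8.35 with shGATA3 and 9.70 and 9.67 with shTCF1. Both groups were below control, and the pooled fall was 1.17 (SE 0.09, limma adjusted p = 0.00228). HOXA9 and HOXA10, homeobox genes that are high in a subset of T-ALL, rose by 0.59 and 0.63. LMO1, a T-ALL oncogene, rose by 0.46 almost wholly on the shGATA3 arrays, at 15.01 and 14.95 against 14.19 and 14.17 in control, with the shTCF1 arrays at 14.22 and 14.36. SPI1, the myeloid factor PU.1, fell by 0.69, and by 0.42 after normexp. MECOM, a stem-cell factor, fell by 0.42, it lay within 0.15 of control on the shTCF1 arrays, and it was common under 2 of the 4 scalings. HHEX alone of these kept its call without each array, and it lost it in the model with 2 groups (adjusted p = 0.152). HOXA10 lost its call without control 2, SPI1 without control 1, and HOXA9, LMO1 and MECOM without either control array, with adjusted p up to 0.169.

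Glycolytic and hypoxia-responsive genes included several falls. Of 30 tested, 7 were called lower (23.3%), 5 of these beyond both controls, and 1 was called higher (3.33%), with a list median of -0.33. The count of falls was 4 under 75th percentile scaling, 5 without control 1 and 2 without control 2. HK2, hexokinase 2, which commits glucose to metabolism, read 9.82 and 10.07 in control against 8.88 to 9.07. HK2 fell 1.94-fold (difference -0.96, SE 0.11, limma adjusted p = 0.00537), and its call held without each array. LDHA, lactate dehydrogenase A, read 13.13 and 13.07 in control against 12.37 to 12.71 and fell by 0.58 (SE 0.13, limma adjusted p = 0.0267). ENO1, enolase, fell by 0.49, and BHLHE40, a hypoxia-induced repressor, by 0.66. PDK1, a pyruvate dehydrogenase kinase, fell by 1.24, and by 0.81 after normexp. Its highest hairpin array at 7.72 lay just below the lower control array at 7.80, and it was common under VSN alone of the 4 scalings. PFKL, the liver phosphofructokinase, rose by 0.62. The calls of LDHA, ENO1 and PFKL were lost without either control array, that of BHLHE40 without control 2 and that of PDK1 without control 2, shGATA3 2 or shTCF1 1, with adjusted p up to 0.21.

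Amino acid stress genes also included falls, while replication genes were called lower at near the share of all genes. Of 39 tested genes of the ATF4 and unfolded protein response 8 were called lower (20.5%) and 2 higher (5.13%), with a median of -0.14, and 1 was called lower without control 1 and 1 without control 2. DDIT4, an inhibitor of mTORC1, read 10.55 and 11.43 in control against 9.49 to 10.11 and fell by 1.24 (SE 0.28, limma adjusted p = 0.0305). SLC3A2, the heavy chain of amino acid transporters, fell by 0.71, the pseudokinase TRIB3 by 0.57 and MTHFD2, a mitochondrial folate enzyme, by 0.47. XBP1 and ATF6, factors of the endoplasmic reticulum stress response, rose by 0.41 and 0.44. Of 55 tested replication genes 7 were called lower (12.7%, beside 10.2% of all genes) and 0 higher, with a median of -0.15. Under 75th percentile scaling 4 were lower, and after normexp 18 were lower and 3 higher. RFC3, a subunit of the clamp loader, read 10.18 and 10.11 in control, 9.53 and 9.52 with shGATA3 and 8.91 and 9.02 with shTCF1. It fell by 0.90 (SE 0.09, limma adjusted p = 0.00361) and kept its call without each array but not in the model with 2 groups (adjusted p = 0.06). E2F3, an activator of S-phase genes, fell by 0.55, the polymerase subunits POLE2 and POLD2 by 0.54 and 0.57, the helicase subunit MCM4 by 0.50 and the ribonucleotide reductase subunit RRM1 by 0.35. Without control 1, adjusted p was above 0.05 for all of these except RFC3 and DDIT4, and DDIT4 lost its call without control 2, shGATA3 2, shTCF1 1 or shTCF1 2 (adjusted p 0.128 at most).

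MIR17HG, the host transcript of the miR-17-92 microRNA cluster, was noticed among the falls after the values were seen. It read 10.53 and 10.07 on the control arrays, 8.94 and 9.26 on those labelled shGATA3 and 8.27 and 8.13 on those labelled shTCF1. The host transcript was 3.14-fold lower (difference -1.65, SE 0.16, limma adjusted p = 0.00357) and stayed called without each array, with the shTCF1 arrays lower than the shGATA3 arrays (limma adjusted p = 0.0359). The cluster is an oncogenic locus in lymphoid malignancy, and its microRNAs, which were not measured on these arrays, are shown for the transcript they are cut from. The mature sequences come from RefSeq (GRCh38.p14, plus strand of chromosome 13, the first starting at 91350618 and the last ending at 91351382), 5′ to 3′, with the seed, bases 2 to 8, in capitals.
hsa-miR-17-5p: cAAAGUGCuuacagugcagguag
hsa-miR-20a-5p: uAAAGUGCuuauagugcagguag
hsa-miR-18a-5p: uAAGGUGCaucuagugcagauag
hsa-miR-19a-3p: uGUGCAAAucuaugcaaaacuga
hsa-miR-19b-3p: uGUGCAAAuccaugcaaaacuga
hsa-miR-92a-3p: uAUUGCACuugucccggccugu
The 6 mature sequences carry 4 seeds. AAAGUGC is shared by hsa-miR-17-5p and hsa-miR-20a-5p, GUGCAAA by hsa-miR-19a-3p and hsa-miR-19b-3p, and hsa-miR-18a-5p and hsa-miR-92a-3p have a seed each.

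**Figure D4:**
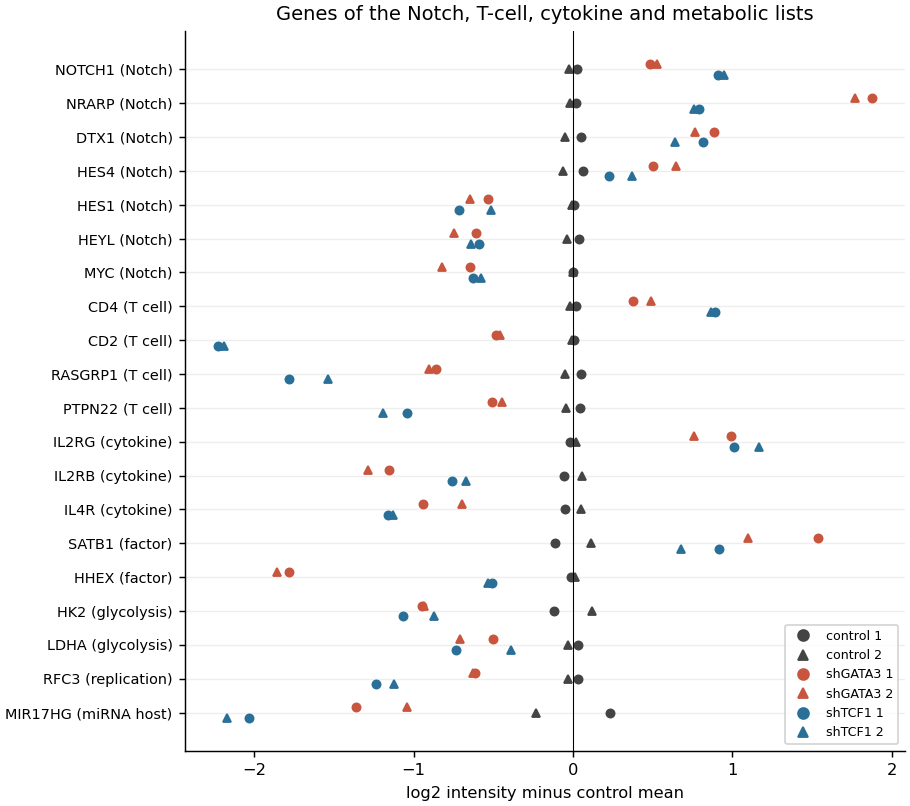
Normalized log2 intensity minus the control mean on each array for 19 genes of the pathway lists and for MIR17HG, with the list in brackets. NOTCH1, NRARP, DTX1, HES4, CD4, IL2RG and SATB1 lie above both controls on all 4 hairpin arrays and the other genes below both. That all 4 lie on the same side follows from the choice of common probes. CD2, HHEX, NRARP and MIR17HG show the widest gaps between the hairpin groups.

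Interferon and survival genes changed modestly. Of 37 tested interferon-stimulated genes 6 were called higher (16.2%) and 2 lower (5.41%), with a median of 0.04. The dynamin-like antiviral proteins MX1 and MX2 read 10.24 and 10.15 in control against 10.41 to 10.90, and 11.52 and 11.50 against 11.68 to 12.34, and each rose by 0.52. IRF7, a regulator of interferon genes, rose by 0.43, and IFI16, a DNA sensor, fell by 0.56. Under the other scalings 8 to 13 members were called higher. EIF2AK2, the double-stranded RNA-activated kinase PKR, read 11.66 and 11.64 in control against 11.42 to 11.57 at its brightest probe and was not called (adjusted p = 0.307), while a dimmer probe fell by 1.01 (limma adjusted p = 0.00533). SRSF6, a splicing factor, showed a like split, at -0.12 for the brighter and -1.19 for the dimmer probe. Both were singled out after their values were seen. Of 16 tested genes of the BCL2 family, 2 were called higher (12.5%, beside 6.19% of all genes) and 1 lower (6.25%, beside 10.2%). The list median was 0.05. The killers BMF and BIK rose by 0.89 (limma adjusted p = 0.0046) and 0.61, and the survival gene BCL2A1 fell by 0.45. With control 1 or control 2 left out, 0 of the interferon list genes were called. BMF kept its call without each array but not in the model with 2 groups (adjusted p = 0.0772), and the calls of MX1, MX2, IRF7, IFI16, BIK and BCL2A1 were lost without either control array, with adjusted p up to 0.2.

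Most other lists lay near or below the shares of all genes, 6.19% called higher and 10.2% called lower. Some lay above the share called lower: immediate early and NF-kB genes (19.2%), Wnt genes (18.5%) and p53 targets (17.4%). Under 75th percentile scaling their falls numbered 3, 4 and 2. Myeloid and B-lineage genes lay above the share called higher (17.6%). Of 79 subunits of oxidative phosphorylation 3 were called higher and 2 lower, led by COX7C, a subunit of cytochrome oxidase that rose by 0.84 from 15.14 and 15.13 to between 15.87 and 16.11, and ATP5F1C, of ATP synthase, which fell by 0.78 and was lost without control 1 (adjusted p = 0.0725). Of 87 cytosolic ribosomal proteins 4 were called higher and 1 lower, with a median of 0.18 that turned to -0.04 after quantile normalization and after normexp. For the remaining lists the counts were, higher and lower, 2 and 0 of 23 for MHC class I and antigen processing, 0 and 1 of 11 for nucleic acid sensing, 1 and 0 of 14 for small RNA processing and 2 and 4 of 23 for p53 targets. Immediate early and NF-kB genes had 0 higher and 5 lower of 26, mitosis 1 and 4 of 40, G1 brakes and cyclins 1 and 1 of 18, sterol and fatty acid synthesis 2 and 3 of 32, and adhesion 3 and 3 of 31. Wnt genes had 2 and 5 of 27, myeloid and B-lineage genes 3 and 1 of 17, cytotoxic genes 1 and 0 of 14, and polycomb genes 1 and 1 of 28. Of the 114 list genes that were common, 19 were still called without control 1, 24 without control 2 66 to 100 without a hairpin array and 16 in the model with 2 groups.

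**Figure D5:**
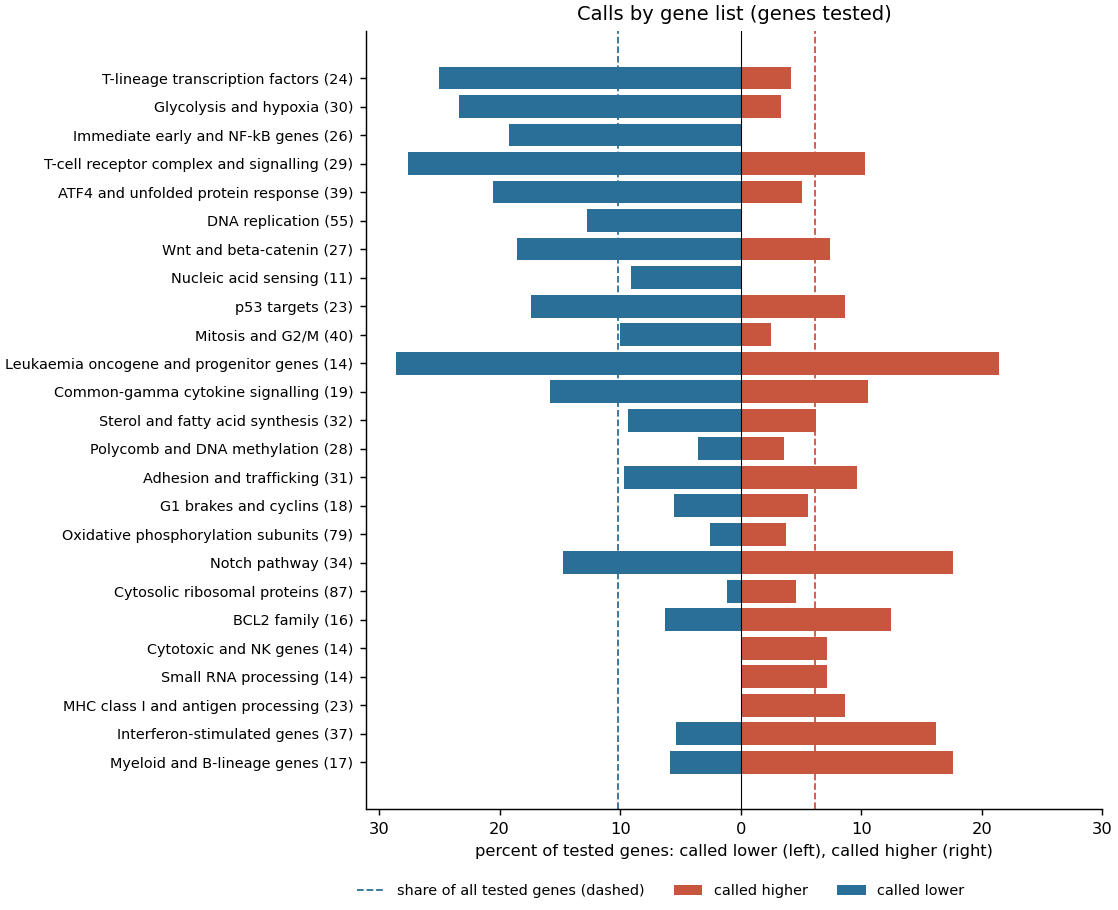
Percent of the tested genes of each list that were called higher (right, red) or lower (left, blue) in the pooled contrast, with the number tested in brackets and the shares of all 13448 genes as dashed lines at 6.19% and 10.2%. The lists of T-cell receptor signalling, T-lineage factors, leukaemia genes and glycolysis reach 23.3% to 28.6% called lower.

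Within slide column 2, shTCF1 2 minus control 1, the median difference of common probes that were higher was 0.61 and of those that were lower -0.64, beside -0.02 for all probes. Within column 3, shGATA3 1 minus control 2, these were 0.44 and -0.43, beside 0.03. The hairpin groups, for comparison, were called apart at 7.09% of all tested probes and at 519 of the 4358 common ones (11.9%). The arrays of both columns entered the choice of the probes, so the values are a description. At each of the 23 named genes the difference within either column was at least 0.45 in size. With column as a block, which leaves 1 residual degree of freedom, limma called 0 probes, and 4378 had an unadjusted p below 0.05.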

How the data were processed

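RNA from sorted RPMI-8402 cells was labelled with Cy3 and hybridized by the authors to a custom 1-colour Agilent array with catalogue and long noncoding RNA probes. The deposited scanner files hold the processed signal, a background-subtracted intensity on a linear scale. Per the labels the software was Feature Extraction 9.1, whereas the file headers name 10.7.1.1. The authors also deposited a table of log2 values normalized with VSN, used only as an alternative, because its control 2 column correlated with its own array at 0.733 and its control 1 column followed the scanner file of control 2, and its shGATA3 1 column that of shGATA3 2, both at 0.999.

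Outlier-flagged and control spots were left out (71 probes), and spots of a probe were averaged. The variance stabilizing transformation was rewritten in R 4.3.3 (trimming quantile 0.9, 7 iterations, 5 strata) and tested on simulated data. Probes well above background on all 6 arrays were fitted in limma 3.58.1 with 3 group means (3 residual degrees of freedom), the contrast being the mean of both hairpin groups minus control, with Benjamini-Hochberg adjustment over 27277 probes and a threshold of 0.05. An exact two-sided permutation test of 4 against 2 arrays cannot go below 0.133. The study describes these arrays as independent experiments, but the labels give only replicate numbers, so p-values measure the spread between these samples, which may be technical. The number of arrays limits the precision. No per-sample column of the tables was left without a sample.

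Named genes were the 12 rises and 12 falls among common non-histone genes with the largest smaller group difference, and likewise 2 custom probes each way. 1 of the falls is not reported here. The members and lists were chosen with earlier results of these data known. RefSeq symbols (GRCh38.p14) were matched for 25682 probes. Alternatives were other scalings (75th percentile, quantile, normexp on the median signal with offset 50), the deposited table, other filters and models, and each array left out.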

Additional observations from a re-analysis of the deposited data

Results flagged for a closer look

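The hairpin groups were compared directly, as the mean of the arrays labelled shGATA3 minus that of the arrays labelled shTCF1, and the genes below differed at a limma adjusted p under 0.05. The TCF7 probes differed by 2.03 and 1.65. Values were higher on the arrays labelled shGATA3, in log2 difference, for CD2 1.74, NRARP 1.05, MIR17HG 0.90, RASGRP1 0.78, ID1 0.73, LMO1 0.69, F12 0.67, BMF 0.64, PTPN22 0.64, ID3 0.58 and RFC3 0.56. Values were lower on those arrays for RMRP -0.49, RN7SK -0.51, IL2RB -0.51, HOXA9 -0.55, IKZF2 -0.61, MX2 -0.61, MECOM -0.69, ME3 -0.84 and HHEX -1.30. Over all tested probes, 1934 (7.09%) were called between the hairpin groups, and among the common non-histone probes 519 (11.9%). Both hairpin groups lay in the same slide row, so this comparison is not confounded with row, but each group lay in slide columns of its own.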

How the results depend on the processing

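Counts of called probes, higher and lower, were 2006 and 2708 with VSN, 2946 and 2139 with 75th percentile scaling, 3106 and 2445 with quantile normalization and 3525 and 3348 with normexp, and common probes were 2966 and 3253 higher under the last 2. The deposited table gave 0 and 0 calls (2223 at an unadjusted p under 0.05), and 2694 and 3759 probes beyond both controls. A model with 2 groups gave 384 and 513, requiring a call in both group contrasts 607 and 778, and slide column as a block 0 and 0 (4378 unadjusted), for called and for common probes. Common probes of mean log2 intensity 8 or more, an alternative chosen after seeing the data, numbered 1022 and 1138. Leaving out an array gave 286 to 1995 called higher and 428 to 2948 called lower, and 283 to 1926 and 415 to 2758 common, with the lowest counts without control 1. Probes beyond both controls then ranged over 5591 to 7257 and 6359 to 8580. With the replicate number as a block, 1702 and 2351 probes were called and 3584 of 4411 common probes remained common. Deviations of replicate 1 from its group mean correlated across probes at -0.03, -0.02 and 0.06 between pairs of groups. Same-numbered samples thus shared no clear deviation from their group means. Of the common probes, 3858, 3905 and 3769 were also common under 75th percentile, quantile and normexp scaling. Differences reversed in the deposited table for ZNF664-RFLNA 0.28, TCF7 0.63, TCF7 2.29, GATA3 -0.036, MTHFD2 0.39, RASGRP1 1.18, ID3 3.04, EIF2AK2 0.55, IFI16 0.45, CD2 1.77, POLE2 1.78, MYC 0.030, PLCG1 1.46, LCP2 2.66, BCL2A1 0.29, ATP5F1C 2.79, SLC3A2 0.56, GRAP2 0.96, IL2RB 0.53, MIR17HG 1.06, IL15RA -0.12, SPI1 0.56 and EIF2AK2 0.61, and with slide column as a block for the brighter SRSF6 probe (0.0096); the cause was not tested. Signal over background limits dim probes.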
